A study of Mus musculus with 5 samples.

Results

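The BCL2 family apoptosis regulators were taken as 10 genes, Bcl2, Bcl2l1, Mcl1, Bcl2l2, Bax, Bak1, Bid, Bad, Bik and Bcl2l11, and every probe set that the platform annotation named for 1 of them alone was used. A probe set is a group of short probes on an Affymetrix array that together report 1 transcript or a part of it. The rule found 29 probe sets for 9 of the 10 genes, out of 22626 probe sets and 12393 named genes on the array. Bax had no probe set named for it alone, so no value is given for it. The groups were 3 arrays of intestinal tumours from male Apc1638N mice on the C57Bl6/J strain (tumours 16, 18 and 2) and 2 arrays of normal intestine from male C57Bl6/J animals with unmutated Apc (wild types 36 and 62), all aged 8 months. Apc1638N mice carry a germline mutation that truncates Apc, the tumour suppressor that restrains Wnt signalling, and they develop intestinal tumours. The epithelium was isolated by laser capture microdissection, in which chosen areas of a tissue section are cut out under a microscope. Normal tissue of Apc1638N mice was not analysed here, so the Apc genotype and the tumour state cannot be told apart. Nothing in the labels says that each array came from its own animal, so each p-value reflects only how far these 5 arrays scatter.

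The BCL2 family decides whether the outer membrane of the mitochondrion stays intact when a cell is under stress. Its pro-survival proteins hold the effectors Bax and Bak1 in check, and the BH3-only proteins, which share just the BH3 segment with the rest of the family, either block the pro-survival proteins or activate the effectors directly. Once the membrane is breached, cytochrome c reaches Apaf1, and caspases are activated. In the gut, this machinery is known for removing damaged cells from the crypts.

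Values are log2 signals as deposited, so a difference of 1 is a doubling of signal, and every change is the mean of the tumour arrays minus the mean of the wild-type arrays. A probe set was called where its adjusted p in limma, a linear model fitted to all 22626 probe sets at once, was below 0.05, and SE is limma's standard error. Of the 29 BCL2 family probe sets, 6 were called, 4 of them higher and 2 lower in the tumours. Among all probe sets 18.3% were called, 9.58% higher and 8.72% lower, so the family's share of calls was near that background. The median change of the 29 was 0.01, and the median of all probe sets was 0.00. The tumour and wild-type arrays did not overlap for 15 of the 29, against 47.9% of all probe sets. With each gene read from its brightest probe set, 3 of the 9 measured genes rose, Bcl2l11, Bid and Mcl1, and 1 fell, Bad. The other 5, Bcl2, Bcl2l1, Bcl2l2, Bak1 and Bik, did not pass. Of all 12393 genes 20.4% were called, 10.5% higher and 9.92% lower, and the groups did not overlap for 6285. The call of Mcl1 extended to 1 of its 5 other probe sets, and 3 of those 5 had lower signals in the tumours, as described with that gene.

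**Figure D1:**
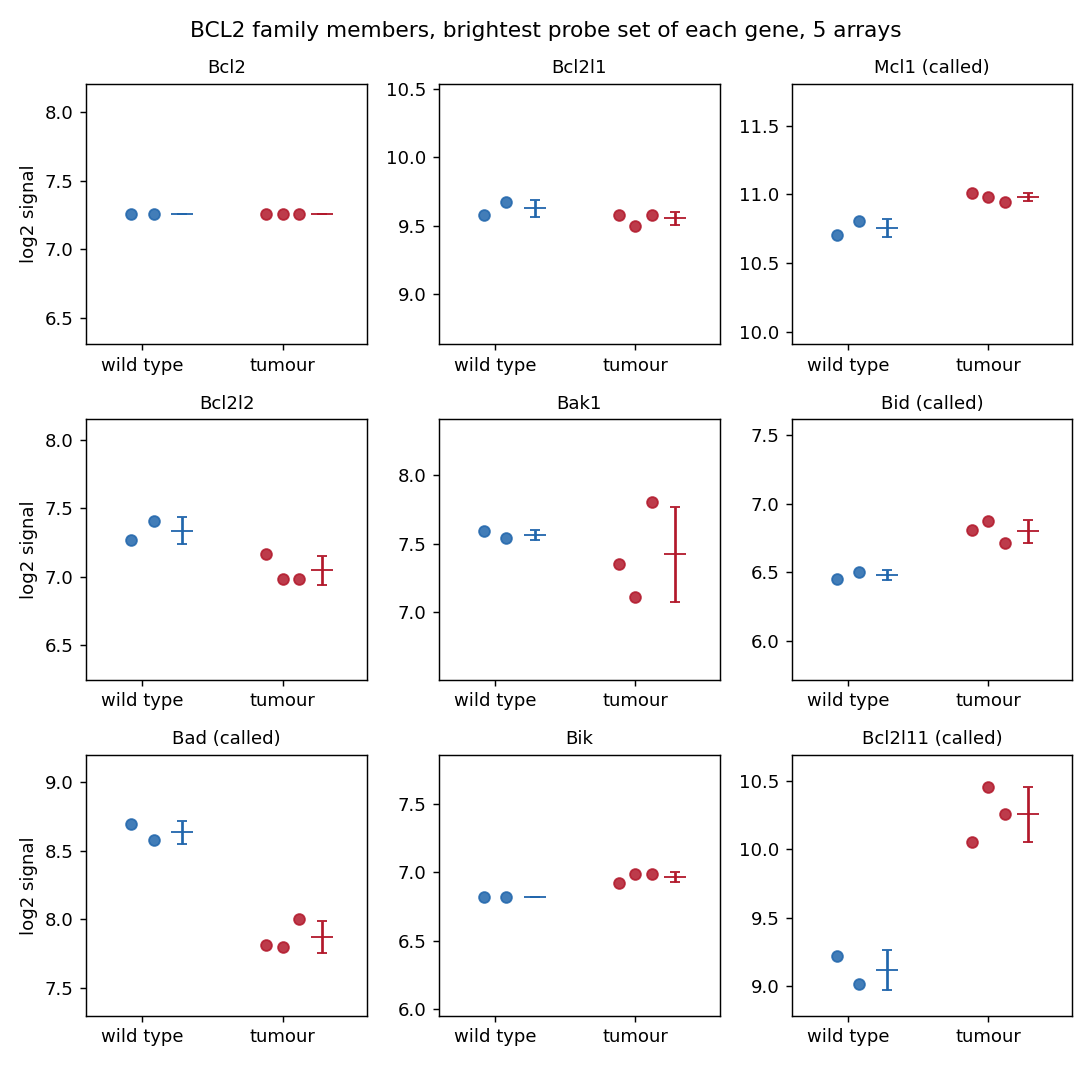
The plot of BCL2 family levels shows the log2 signal (vertical axis) of the brightest probe set of each measured gene, with 1 point per array and, beside the points, the group mean and SD. Wild-type arrays (blue, n = 2) and tumour arrays (red, n = 3) are wholly apart for Bcl2l11, Bad, Bid and Mcl1, which were called, and also for Bcl2l2 and Bik, which were not. Over all 12393 genes the groups did not overlap for 6285.

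**Figure D2:**
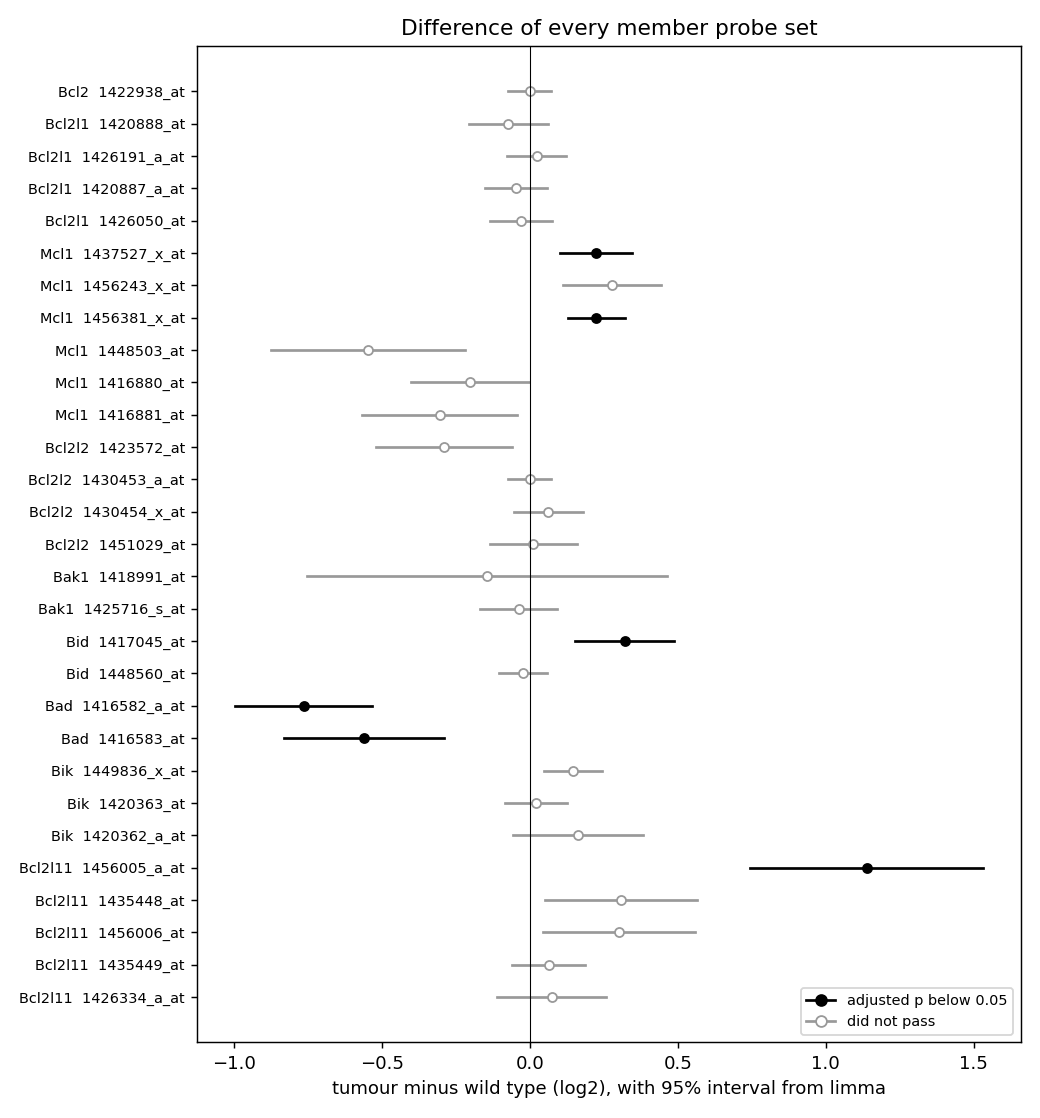
The plot of all 29 BCL2 family probe sets shows the log2 difference of tumours from wild types (horizontal axis) with limma's 95% interval. Filled points mark the 6 probe sets with an adjusted p below 0.05, of which 1456005_a_at of Bcl2l11 has the largest size of change at 1.14.

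Several facts of the whole series bear on these values. Laser capture is meant to leave out cells beyond the epithelium, and marker genes were read to check this. All 8 measured epithelial markers lay above the 25th percentile of signal on every array. This also held for all 5 B and plasma cell and all 6 fibroblast and muscle markers, so it does not single out epithelium. Of these Krt18 and Krt19 rose, by 2.44 and 1.20, Vil1 fell by 1.26 and 5 did not pass, and their mean log2 level was 11.26 to 11.71 in the tumours and 11.35 to 11.56 in the wild types. Of 10 measured T cell markers, 5 fell and none rose, and the largest fall was that of Gzma, by 2.84. Their mean levels were 6.26 to 6.39 in the tumours and 7.08 to 7.32 in the wild types. Cd2 and Cd8b1 were below the 25th percentile on every array. Mean levels of the 5 B and plasma cell markers were 7.94 to 8.24 and 8.94 to 9.36, with 1 called lower, Jchain, by 2.99. Those of the 6 fibroblast and muscle markers were 8.27 to 9.52 and 7.51 to 7.84, with 1 called higher. Of these last 6, Acta2 rose by 1.22. Col1a1, Col1a2 and Col3a1 differed by 1.80, 2.32 and 2.32 and did not pass, though every tumour array was above both wild types. Col1a2 ran from 9.30 to 11.93 in the tumours and from 8.23 to 8.61 in the wild types. Des and Myh11 differed by -0.04 and -0.01. The 6 myeloid markers averaged 7.50 to 7.91 and 7.06 to 7.24, with 1 called higher, and none of the 4 endothelial markers was called. The myeloid marker Itgam and the endothelial marker Tek were below the 25th percentile on every array. The 3′ minus 5′ signal of beta-actin, which grows as RNA is degraded or labelled from its 3′ end, was 4.0 to 4.25 in the tumours and 2.51 to 3.32 in the wild types. The part of these differences in the results below was not tested. Each captured sample pools many cells, so fewer cells of a type and less RNA per cell cannot be told apart. Without wild type 62, limma called 0 probe sets, with 6682 at an unadjusted p below 0.05, of which 10 were among the 29. Once probe sets with tied values were also left out, the same fit called 2830 of 15762 probe sets and 2 of the 17 family probe sets that remained.

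The promoters of the 2 called BH3-only genes with the largest changes are shown because Bcl2l11 and Bad moved in opposite directions. RefSeq sequences of build GRCm38.p6, from 250 bases before to 50 bases after an annotated transcription start, were found for 9 of the 10 genes in 13 windows, with no entry for Bik. For each of the 2 genes the window of the more upstream of its starts is printed 5′ to 3′ on the sense strand, at chr2:128125788-128126087 (+) for Bcl2l11 and chr19:6941611-6941910 (+) for Bad, in lower case throughout because no searched motif matched.
Bcl2l11: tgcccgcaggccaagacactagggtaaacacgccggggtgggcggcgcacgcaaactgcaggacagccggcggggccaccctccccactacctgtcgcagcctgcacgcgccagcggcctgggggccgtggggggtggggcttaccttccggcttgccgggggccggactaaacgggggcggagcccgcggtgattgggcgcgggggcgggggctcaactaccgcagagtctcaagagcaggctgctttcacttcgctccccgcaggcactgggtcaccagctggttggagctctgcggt
Bad: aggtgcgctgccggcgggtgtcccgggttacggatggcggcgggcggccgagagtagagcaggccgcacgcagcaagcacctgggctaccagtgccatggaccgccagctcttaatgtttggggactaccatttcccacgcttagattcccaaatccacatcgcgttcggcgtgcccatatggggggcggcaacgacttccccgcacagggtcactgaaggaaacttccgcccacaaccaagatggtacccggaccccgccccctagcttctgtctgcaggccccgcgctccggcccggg
These windows were 71% and 65.7% G and C, against a median of 52.7% over all windows. Motifs were searched on both strands. The TCF motif CTTTGAT, the target of the Wnt pathway's transcription factors, was in none of the 13 windows and in 3.73% of all 32851. The E-box CACGTG, a sequence bound by Myc, was in 1 of the 13, that of Bax, and in 7.15% of all windows. The p53 response element, searched by name as a single decamer, was also in the Bax window alone of the 13, and in 8.36% of all windows. A motif match is a description of letters and not of binding, and the motifs do not overlap one another.

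Among the pro-survival genes, Mcl1 alone had called probe sets, and its 6 probe sets differed in both directions. Mcl1 encodes a short-lived pro-survival protein that binds Bak1 and Bcl2l11. On its brightest probe set, 1437527_x_at, the log2 signal was 11.01, 10.98 and 10.95 in tumours 16, 18 and 2, and 10.71 and 10.80 in wild types 36 and 62. All tumour arrays lay above both wild types, and the rise was 0.22 (SE 0.04, adjusted p = 0.0412). On 1456381_x_at the tumours read 9.50, 9.54 and 9.56 and the wild types 9.32 and 9.29, a rise of 0.23 (SE 0.04, adjusted p = 0.0250). These groups were apart as well. On 1456243_x_at the tumours read 10.23, 10.28 and 10.34 and the wild types 9.94 and 10.07, and the difference of 0.28 did not pass (SE 0.06, adjusted p = 0.0507).

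The other Mcl1 probe sets were lower in every tumour array than in either wild type. On 1448503_at the tumours read 8.93, 8.75 and 8.75 and the wild types 9.20 and 9.51, and the difference of -0.55 (SE 0.12, 95% interval -0.87 to -0.22) missed the threshold at an adjusted p of 0.0506. On 1416880_at the tumours read 8.90, 8.90 and 8.71 and the wild types 9.02 and 9.06, a difference of -0.20 (95% interval -0.40 to -0.0031, adjusted p = 0.145). On 1416881_at they read 7.36, 7.17 and 7.26 against 7.45 and 7.68, a difference of -0.30 (95% interval -0.57 to -0.04, adjusted p = 0.110). None of these 3 differences passed as the values were deposited. That of 1448503_at did pass in 4 of its 8 alternative fits, with quantile normalization (-0.44, adjusted p = 0.0465), median centring (-0.58, adjusted p = 0.0275), the 40th percentile filter (adjusted p = 0.0344) and without tied probe sets (adjusted p = 0.0237). The 8 include a 2-fold minimum, a size condition on the main fit under which 1448503_at could not pass. The mean of the 3 probe sets whose names end in _x_at, a suffix Affymetrix gives to probe sets that may also bind other transcripts, minus the mean of the other 3 was 1.85, 1.99 and 2.04 in tumours 16, 18 and 2. It was 1.43 and 1.31 in wild types 36 and 62, so all tumour arrays had the wider gap; this contrast was formed after the values were seen and has no test. Averaged over all 6 probe sets, Mcl1 differed by -0.05 (adjusted p = 0.506). The direction of Mcl1 thus depended on the probe set, and the 2 called rises were lost in each of the 5 fits that left out 1 array, with 1437527_x_at at adjusted p-values of 0.0741 to 0.136. Both were also lost when each array was centred on its median (0.19 each, adjusted p = 0.0569 and 0.0538) and under the trend and robust settings of eBayes (adjusted p = 0.135 and 0.10), and without tied probe sets (adjusted p = 0.0614, and 0.050002 against the threshold of 0.05). The difference of 1456243_x_at passed with quantile normalization (0.45, adjusted p = 0.00692), the 40th percentile filter (adjusted p = 0.0413) and without tied probe sets (adjusted p = 0.0480). With median centring the fall of 1448503_at was the 1 call among the 6 Mcl1 probe sets. The 3′ minus 5′ differences of beta-actin and Gapdh were larger in all tumour arrays than in both wild types, by 1.24 and 0.80 on average, and their part in the split was not tested.

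**Figure D3:**
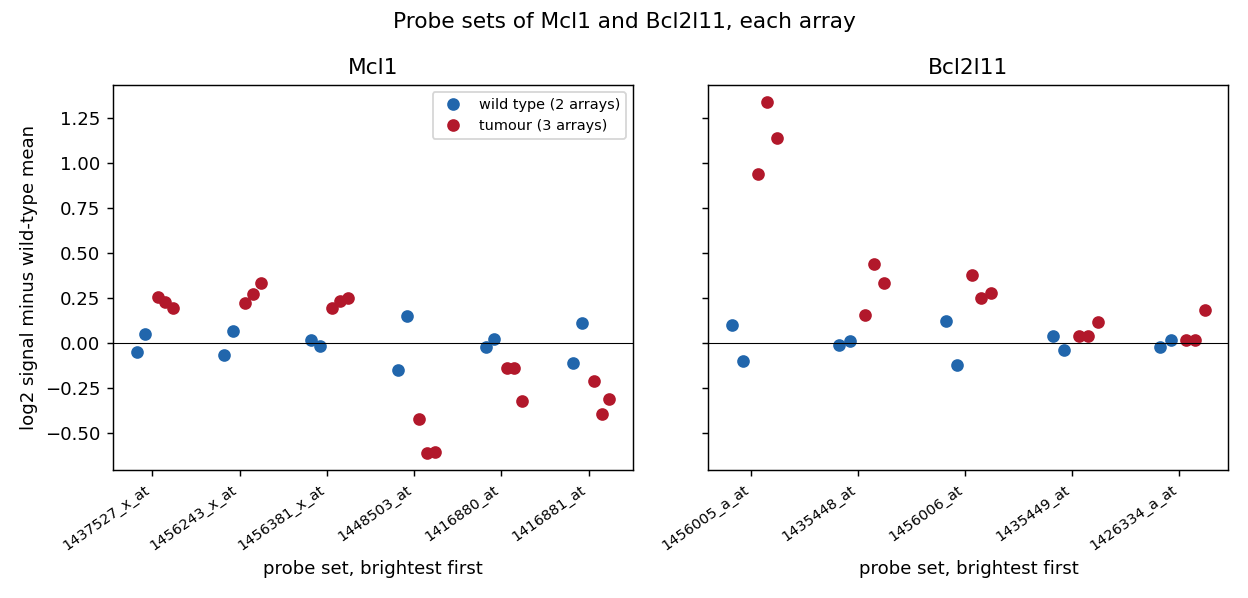
The plot of Mcl1 and Bcl2l11 probe sets gives each array's log2 signal minus the wild-type mean of that probe set (vertical axis), with probe sets ordered from brightest to dimmest. For Mcl1 the tumour arrays (red) sit above the wild types (blue) on the 3 _x_at probe sets and below them on the other 3; for Bcl2l11 the tumours sit highest above the wild types on 1456005_a_at.

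Bcl2, Bcl2l1 and Bcl2l2 did not pass the test. Bcl2, the founding member of the family, read 7.26 on each of the 5 arrays on 1422938_at, its 1 probe set. Its difference was 0.00 with a 95% interval from -0.07 to 0.07, but 4 of the 5 values were exactly tied, which narrows such an interval. Bcl2l1, which encodes Bcl-xL, read 9.58, 9.50 and 9.58 in the tumours and 9.58 and 9.67 in the wild types on 1420888_at. The groups met at the tied value 9.58, and the difference was -0.07 (95% interval -0.21 to 0.06, adjusted p = 0.379). Its other 3 probe sets differed by -0.05 to 0.02, and 1420887_a_at and 1426050_at were below the 25th percentile of signal on every array.

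Bcl2l2, which encodes the pro-survival protein Bcl-w, read 7.17, 6.99 and 6.99 in the tumours and 7.27 and 7.41 in the wild types on 1423572_at. Every tumour array was below both wild types, yet the difference of -0.29 (SE 0.08, 95% interval -0.52 to -0.06) did not pass at an adjusted p of 0.0915. The other 3 Bcl2l2 probe sets differed by 0.00 to 0.06, and 1430453_a_at held 1 value, 6.46, on all 5 arrays.

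Of the effectors, Bak1 was measured and Bax was not analysed here. Bak1, which forms pores in the outer mitochondrial membrane, read 7.35, 7.11 and 7.80 in the tumours and 7.59 and 7.54 in the wild types on 1418991_at. The tumours lay on both sides of the wild types, and tumour 2 was the highest of the 5. The difference was -0.14 (SE 0.22, adjusted p = 0.693), and its 95% interval of -0.75 to 0.46 was the widest of the 29 probe sets. On 1425716_s_at, below the 25th percentile on every array, the difference was -0.04 (adjusted p = 0.627).

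Bcl2l11, which encodes Bim, a BH3-only protein that binds all the pro-survival members and can activate Bax and Bak1, had the largest change. On 1456005_a_at the tumours read 10.05, 10.46 and 10.26 and the wild types 9.22 and 9.02. The lowest tumour array lay 0.84 above the highest wild type, and the means of 10.26 ± 0.20 (SD, n = 3) and 9.12 ± 0.14 (SD, n = 2) gave a rise of 1.14 (SE 0.14, adjusted p = 0.0172), or 2.20-fold. It was the only BCL2 family probe set that was both called and changed at least 2-fold.

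The other 4 Bcl2l11 probe sets leaned the same way but did not pass. On 1435448_at the tumours read 8.09, 8.38 and 8.27 and the wild types 7.93 and 7.95, a difference of 0.31 (SE 0.09, 95% interval 0.05 to 0.57, adjusted p = 0.104). On 1456006_at the tumours read 7.08, 6.95 and 6.98 and the wild types 6.83 and 6.58, a difference of 0.30 (adjusted p = 0.106). Both had groups that were apart. The dimmest, 1435449_at and 1426334_a_at, were below the 25th percentile on every array and differed by 0.06 and 0.07. The mean of all 5 probe sets rose by 0.38 (adjusted p = 0.0171). The call of 1456005_a_at held in 2 of the 5 fits that left out 1 array, those without tumour 16 and tumour 18. It was lost without tumour 2, wild type 36 and wild type 62 (adjusted p = 0.0520, 0.0816 and 0.107), and was made in all 5 once probe sets with tied values were also left out.

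Bad, a BH3-only protein that 14-3-3 proteins hold in the cytosol while it is phosphorylated by survival kinases, fell on both of its probe sets. On 1416582_a_at the tumours read 7.81, 7.80 and 8.00 and the wild types 8.70 and 8.58. All tumours lay below both wild types, with means of 7.87 ± 0.11 (SD, n = 3) and 8.64 ± 0.08 (SD, n = 2), and the signal fell by 0.76 (SE 0.09, adjusted p = 0.0134), or 1.70-fold. On 1416583_at the tumours read 5.97, 6.01 and 6.23 and the wild types 6.68 and 6.58, and the signal fell by 0.56 (SE 0.10, adjusted p = 0.0322). Tumours 16 and 18 were below the 25th percentile there. Both falls were called in 1 of the 5 fits without 1 array, that without tumour 2, with 1416582_a_at at adjusted p-values up to 0.0819, and 1416582_a_at was called in all 5 once tied probe sets were left out too.

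Bid, which caspase-8 cleaves to carry a death-receptor signal to the mitochondrion, rose by less. On 1417045_at the tumours read 6.81, 6.88 and 6.71 and the wild types 6.45 and 6.50. The groups were apart, and the rise was 0.32 (SE 0.06, adjusted p = 0.0374), or 1.25-fold. It was called in 1 of the 5 fits without 1 array, that without tumour 2, and its adjusted p reached 0.154 in the others. It was also lost when both Bid probe sets were averaged, with a difference of 0.15 (adjusted p = 0.0571). The other Bid probe set, 1448560_at, was below the 25th percentile on every array and differed by -0.02 (adjusted p = 0.650).

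Bik, a BH3-only protein of the endoplasmic reticulum, read 6.92, 6.99 and 6.98 in the tumours and 6.82 and 6.82 in the wild types on 1449836_x_at. All tumours were above both wild types, but the difference of 0.15 (SE 0.04, 95% interval 0.05 to 0.24) did not pass at an adjusted p of 0.0655. The probe sets 1420363_at and 1420362_a_at differed by 0.02 and 0.16, with adjusted p-values of 0.750 and 0.256.

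The 3 genes whose profiles over the 5 arrays were nearest to that of Bcl2l11, by the root mean square difference of mean-centred log2 signals between brightest probe sets, were E130309D02Rik (0.06), Vgll4 (0.07) and Ghr (0.07). Their changes of 1.03, 1.01 and 1.06 were all called. Vgll4 is a cofactor of TEAD transcription factors and Ghr the growth hormone receptor. The rule for naming them uses the same 5 arrays and carries no test.

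Genes around the family were read from 6 lists, each gene by its brightest probe set. A gene counted as not passing can thus have a dimmer probe set that was called. The shares to set beside their counts are those of all genes, of which 20.4% were called, 10.5% higher and 9.92% lower. Of 12 other BCL2-related genes, 1 rose, 0 fell and 11 did not pass, with a median change of 0.04 against 0.00 for all genes. The gene that rose was Bok, a Bax-like effector, at 9.13, 9.46 and 9.91 in the tumours and 8.19 and 7.71 in the wild types. Its rise of 1.55 (SE 0.29, adjusted p = 0.0362) was larger in size than that of any of the 9 measured family genes, and its groups were apart. Of the list's 16 probe sets, 2 were called higher and 0 lower, against 9.58% and 8.72% of all probe sets. Bok had a single probe set, so the other call fell on a probe set that was not the brightest of its gene. Pmaip1, which encodes the BH3-only protein Noxa and is named here after its values were seen, had the largest difference in this list that did not pass. It read 5.39, 5.40 and 5.42 in the tumours, all below the 25th percentile, and 6.30 and 7.55 in the wild types, a difference of -1.52 (SE 0.40, adjusted p = 0.0724).

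The list of caspase activation genes also holds other cell death genes, such as Aifm1. Of its 12 measured genes, 4 fell, 0 rose and 8 did not pass, with a median change of -0.26. The share of all genes that fell was 9.92%. Apaf1, the scaffold on which cytochrome c assembles the apoptosome, read 7.36, 7.26 and 7.40 in the tumours and 8.19 and 8.43 in the wild types. It fell by 0.97 (SE 0.09, adjusted p = 0.0102), and its other probe set fell by 0.26 (adjusted p = 0.0473). Casp9, the initiator caspase recruited by Apaf1, fell by 0.51 (SE 0.11, adjusted p = 0.0479), while its other probe set differed by 0.05 (adjusted p = 0.524). Casp6, an executioner caspase, fell by 1.29 (SE 0.26, adjusted p = 0.0405), and Aifm1, a mitochondrial flavoprotein released in cell death, fell by 0.52 (SE 0.11, adjusted p = 0.0458). For all 4 of these genes, named because they were called, every tumour array was below both wild types. The groups did not overlap for 6285 of all 12393 genes.

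Of 5 measured inhibitor of apoptosis genes, 1 rose and 4 did not pass, with a median change of -0.47. The riser was Birc5, or survivin, a protein of dividing cells, at 7.83, 7.78 and 8.06 in the tumours and 7.14 and 7.28 in the wild types, a rise of 0.68 (SE 0.11, adjusted p = 0.0254). The other 4 are named here after their values were seen. Xiap, Birc2 and Birc3 differed by -1.04, -0.96 and -0.47 (adjusted p = 0.0988, 0.0652 and 0.0798), with every tumour array below both wild types. Groups that did not overlap were common, at 6285 of all 12393 genes. Birc6 differed by 0.11 (adjusted p = 0.339). Of the list's 13 probe sets, 2 were called higher and 1 lower, against 9.58% and 8.72% of all probe sets. Of 10 measured death receptor genes, 3 fell, 0 rose and 7 did not pass, with a median change of -0.15. Cflar, an inhibitor of caspase-8, fell by 0.53 (SE 0.04, adjusted p = 0.00841), and its other 3 probe sets differed by -0.22 to 0.00 and did not pass. The TNF receptor gene Tnfrsf1a fell by 0.52 (SE 0.05, adjusted p = 0.0115). Tnfsf10, which encodes the ligand TRAIL, fell by 0.46 (SE 0.06, adjusted p = 0.0212) and was below the 25th percentile in all 3 tumours.

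Among 20 genes for binding partners and turnover of the family, 4 rose, 4 fell and 12 did not pass, with a median change of 0.14. Dynll1, a dynein light chain that binds Bim, read 11.14, 11.10 and 11.34 in the tumours and 9.05 and 9.02 in the wild types. It rose by 2.16 (SE 0.08, adjusted p = 0.00467), and its other 2 probe sets rose by 2.39 and 1.67. Mtch2, the mitochondrial receptor of cleaved Bid, read 8.31, 8.22 and 8.63 in the tumours and 9.84 and 10.11 in the wild types. It fell by 1.59 (SE 0.16, adjusted p = 0.0117), with falls on 2 of its 5 other probe sets. Pim1, a kinase that phosphorylates Bad, fell by 1.55 (SE 0.17, adjusted p = 0.0133), while its other probe set differed by -0.20 (adjusted p = 0.115). Vdac2, the outer-membrane channel that binds Bak1, fell by 1.19 (SE 0.21, adjusted p = 0.0321). The remaining called genes, named to complete the count after their values were seen, were Akt1, Ywhag and Ywhaq, which rose by 0.89, 0.84 and 0.60, and Bag1, which fell by 0.39. Akt1 phosphorylates Bad, and Ywhag and Ywhaq encode 14-3-3 proteins.

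Of 11 measured transcriptional regulators, 2 rose, 1 fell and 8 did not pass, with a median change of 0.03. Myc, a Wnt target gene and driver of growth, read 7.60, 7.66 and 7.48 in the tumours and 6.25 and 6.70 in the wild types, a rise of 1.11 (SE 0.15, adjusted p = 0.0204). Rela, a subunit of NF-kB, rose by 0.56 (SE 0.10, adjusted p = 0.0321). Foxo3, a transcription factor known to induce Bcl2l11, fell by 0.74 (SE 0.14, adjusted p = 0.0349), with a fall of 0.72 on a further probe set and a difference of -0.01 on the last. In the 5 fits that left out 1 array, Dynll1 lost its call without wild type 62 alone (adjusted p = 0.0595), while Bok, Vdac2, Myc and Foxo3 were called in none. The remaining 11 list genes that the naming rule chose were called in 1 to 3 of the 5. All 16 kept their direction in each of these fits. The calls of Casp9 and Aifm1 were also lost under other settings, that of Casp9 with array weights (adjusted p = 0.0531), without shared-target probe sets (adjusted p = 0.0520) and with its probe sets averaged (adjusted p = 0.0789), and that of Aifm1 under the trend and robust settings (adjusted p = 0.0508). Trp53 had no probe set named for it alone and no value is given.

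**Figure D4:**
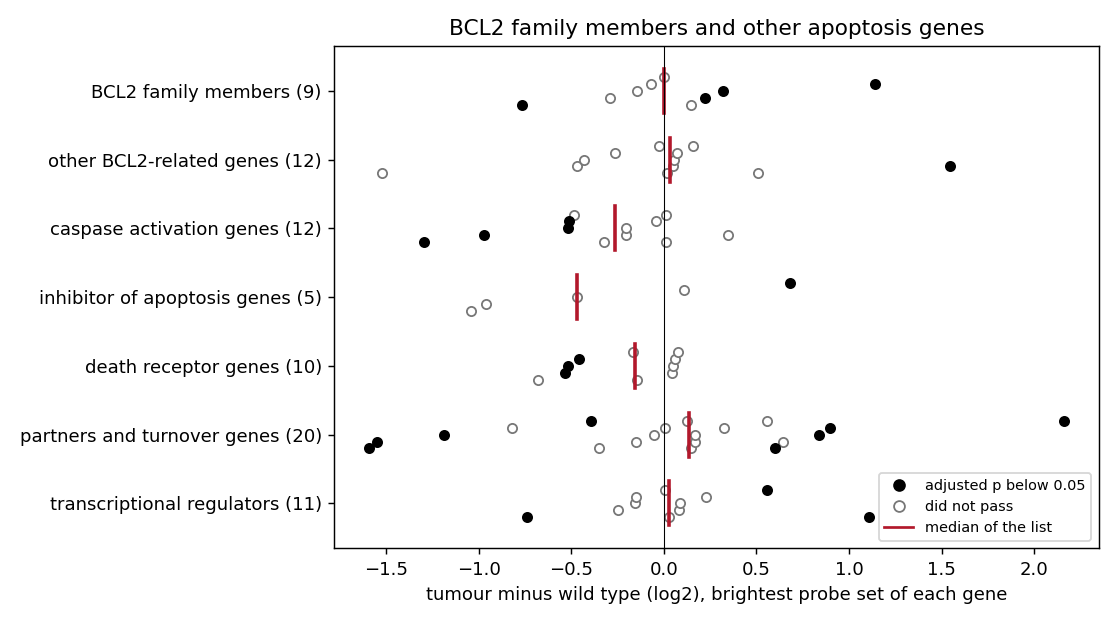
The plot of list changes shows tumour minus wild type (log2, horizontal axis) for 1 point per gene, by its brightest probe set, with the number measured in brackets, filled points for adjusted p below 0.05 and a bar at the list's median. The 9 BCL2 family genes lie between -0.76 and 1.14, and Dynll1, among the partners, is farthest to the right at 2.16.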

How the data were processed

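The values analysed are the log2 signals that the authors deposited for 22690 Affymetrix probe sets on 5 arrays, running from 3.38 to 14.3; that they are log2 was inferred from this range. The submitters' processing notes name the R package affy, and the summary and normalization steps are not given in the sources used here. Array medians were 6.81 to 6.87, and no further normalization was applied. With 64 control probe sets set aside, 22626 were fitted in limma 3.58.1 (R 4.3.3; lmFit and eBayes, defaults, group as the single term). Tests were two-sided and Benjamini-Hochberg adjusted over all 22626, with a threshold of 0.05 and 3 residual degrees of freedom. eBayes draws each probe set's variance toward that of all probe sets, tied ones among them, with 1.19 prior degrees of freedom. Bcl2l2 1430453_a_at, tied on all 5 arrays, thus still has an SE of 0.03. Neither presence calls nor raw intensities were used, so each array's 25th percentile stands for low signal. Exact ties within a group occurred in 30.3% of probe sets. GEO's platform annotation named the genes, and the probe set with the highest mean signal represented a gene. An exact permutation of 3 against 2 arrays cannot go below p = 0.1, so none is given. Named genes are all family members; from each list the 4 called genes of largest change and the largest called change against the majority; Myc and Trp53; and the 3 profiles nearest to the most changed member. Members, lists and rules were chosen with earlier results of these data known. Few arrays limit the precision. The limma fit alone was run on simulated data, with independent normal scatter, no ties and few changed probe sets. That run cannot show how the fit behaves with the ties and many calls of these data. Alternatives are in the closing section.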

Additional observations from a re-analysis of the deposited data

How the results depend on the processing

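With 3 and 2 arrays, calls near the threshold were not stable. The refits used quantile normalization, median centring, a filter at the 40th percentile, array weights, eBayes with trend and robust options, a minimum of 2-fold, averaged probe sets, fits over genes, and fits without shared-target or tied probe sets. There the 6 called family probe sets kept direction and call in 40 of 53 refits, lost the call in 12 and reversed in 1. For averaged probe sets, the outcome counted is that of the gene's mean, entered under its brightest probe set. The 1 reversal was such a mean, that of Mcl1, and 1437527_x_at itself did not reverse. The 23 that were not called gained a call in 7 of 166 refits, 4 of them for the lower Mcl1 1448503_at and 3 for the higher Mcl1 1456243_x_at. The 2-fold minimum was not a new fit but a size condition on the main one, so its outcomes were fixed by the main changes. No uncalled probe set could gain a call there. Of the 6 called ones, only Bcl2l11 1456005_a_at could keep its call. Quantile normalization called 2 other BCL2-related genes, 2 inhibitors of apoptosis and 5 regulators, and gave differences of -0.0274 for Bcl2 1422938_at, 0.079 for Bcl2l1 1420888_at, -0.0027 for Bcl2l2 1451029_at and -0.0071 for Bik 1420363_at. Median centring called 2 other BCL2-related genes and 3 inhibitors, and gave -0.0333 for Bcl2, -0.0096 for Bcl2l1 1426191_a_at, -0.021 for Bcl2l2 1451029_at and -0.0132 for Bik 1420363_at. The 40th percentile filter called 2 inhibitors, and array weights gave -0.0137 for Bcl2l2 1451029_at. None of these reversed differences passed. With a 2-fold minimum, 1493 of all probe sets, 1 family probe set, 1 family gene, 1 caspase activation gene, 0 inhibitors, 0 death receptor genes, 4 partners and 1 regulator were called. Averaging probe sets called 2 family genes and 2 inhibitors and turned Mcl1 to -0.0543. Without tied probe sets 3 other BCL2-related genes and 4 inhibitors were called. Calls over all probe sets moved as well, from 4139 of 22626 in the main fit. They were 4865 with quantile normalization and 4886 with median centring, both of 22626. The filter called 4203 of 13576, and the fit without tied probe sets 5169 of 15762. For results where these values differ from those above, the cause was not tested.

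Leaving out 1 array, with or without the tied probe sets, gave 0 to 5266 called probe sets in all (0 to 3424 with the tied ones in, 2830 to 5266 with them out), 0 to 4 in the family, 0 to 3 family genes, 0 to 2 other BCL2-related genes, 0 to 4 caspase activation genes, 0 to 4 inhibitors, 0 to 3 death receptor genes, 0 to 11 partners and 0 to 3 regulators. The 0 over all probe sets came without wild type 62, where 2830 were called with ties out, and 927, 1422, 3424 and 686 were called without tumours 16, 18 and 2 and wild type 36. Such fits leave 2 residual degrees of freedom, and with 1 wild type its spread is taken from the tumours. Bak1 1418991_at ran from -0.334 to 0.0104, Bcl2l2 1451029_at from -0.0273 to 0.0461 and Bik 1420363_at from -0.0228 to 0.0634. Of the 16 named pathway genes, calls were kept in 146 of 159 refits, in 22 of 80 fits without 1 array and in 63 of 80 without ties as well. Among the 159 refits, the 2-fold minimum removed the calls of Apaf1, Aifm1, Casp9, Birc5, Cflar, Tnfrsf1a, Tnfsf10, Foxo3 and Rela by its rule alone. Their changes in the main fit were below 2-fold. No paired analysis was possible because the groups share no replicate numbers.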
